A study of Mus musculus with 6 samples.

Results

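The genes described here are immediate early genes and heat shock chaperones, which many cells switch on within minutes of a growth signal, an injury or a stress. They were chosen by name, as 38 gene symbols, and all 38 were found in each of the 6 deposited gene lists, which hold 25369 symbols together. By role they are 8 AP-1 subunits and partners, 9 other transcription regulators, 4 proteins of RNA decay and growth arrest, 10 feedback, survival and other early response proteins, and 7 heat shock chaperones. Their RNA was measured in single cells of the liver with the BD Rhapsody whole transcriptome assay, which counts tagged RNA molecules (UMIs). All mice were wild-type males, 8 to 10 weeks old at partial inferior vena cava ligation (pIVCL), an operation that narrows the main vein above the liver and congests the organ. Osmotic pumps were placed 2 weeks after ligation, and the livers were collected when treatment had run for 4 weeks. The DMSO group (3 libraries) received vehicle and the CWHM-12 group (3 libraries) received CWHM-12, an inhibitor of every integrin with the αV subunit, at 100 mg/kg/day. Every liver was perfused with pronase and collagenase, so all 6 libraries come from enzymatically digested tissue, and no undigested liver and no liver without ligation was analysed here. The labels put 1 CWHM-12 library (CWHM-12 1) beside DMSO 1 and DMSO 2 in a batch named 2024.6, and the remaining 3 libraries in a batch named 2024.12.

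Immediate early genes are transcribed without new protein synthesis, because kinases of the MAP kinase pathway act on factors that already sit at their promoters, such as serum response factor and CREB. Their products include the AP-1 subunits, which pair to switch on later genes, and proteins that end the response again, such as the phosphatase Dusp1 and the RNA-binding protein Zfp36. Heat shock chaperones are induced by heat shock factor when proteins unfold. Both groups are known to respond to the warm enzyme digestion that frees single cells from the liver, so their level in isolated cells can reflect the animal, the preparation or both, and the design cannot tell these apart.

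The cell filter kept 37982 cells, between 3128 (DMSO 2) and 8346 (CWHM-12 2) per library, and the 6 libraries held 28220477 to 48100436 UMIs. Cells were clustered without the 38 genes and placed in 18 classes by fixed markers, so a class name means cells that resemble that type. All 13 markers of liver sinusoidal endothelial cells (LSEC), all 11 of Kupffer cells, all 12 of stellate cells and all 12 of hepatocytes were higher in their own class than in the other cells, as were 10 of 11 vascular endothelial markers, 5 of them over 4-fold. The larger of the 2 vascular endothelial clusters (1208 of 1602 cells) scored higher for LSEC markers (1.19) than for vascular endothelial ones (1.05) and was named from Fbln2, Edn1, Vwf and Rspo3 among its leading genes. DMSO 2 stood apart from the other libraries. Of 2373 genes measured in 11 classes, 261 were lower in DMSO 2 than in any other library in every one of those classes. Counted separately, 78 of the 2373 were at least 2-fold below the median of the other libraries throughout, among them 14 of 82 ribosomal genes. Whether the libraries were counted against the same annotation was not tested, so a low value in DMSO 2 may not be a low RNA level. No other library was lowest in every class for more than 1 gene. Hspa8 is the member among the 78 genes, and results that rest on DMSO 2 are given with and without it. The labels name no mouse for a library, so a p-value reflects how these libraries vary, and that variation may be technical.

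RefSeq promoters of build GRCm38.p6 were found for 33 of the 38 genes, and the 250 bases before the start were searched for short motifs. The letters TGACG, the core of the CREB site, occurred on either strand in 16 of 33 members (48.5%) and in 19.8% of the 27025 genes in the table. Every role held them: 5 of 8 AP-1 members, 5 of 6 other transcription regulators and 2 of 4 RNA decay members. They occurred in 2 of 9 feedback members (22.2%) and 2 of 6 heat shock members (33.3%). The complete CREB site TGACGTCA, which contains TGACG, occurred in 4 of 33 members (12.1%), which were Btg2, Dusp1, Maff and Ppp1r15a, and in 1.77% of all genes. A heat shock element, GAANNTTC or TTCNNGAA, occurred in 5 of the 6 heat shock members in the table (83.3%) and in 14.5% of all genes. It also occurred in Egr2, Fosl2 and Jun, which makes 8 of 33 members (24.2%). The CArG box of serum response factor occurred in Egr2 and Zfp36 (6.06% of members, 1.62% of all genes), and the AP-1 site TGACTCA in Csrnp1 alone (3.03% of members, 5.16% of all genes). Cebpd, Egr1, Hspa8, Ier2 and Myc had no promoter in the table and were not searched. Bases further upstream were not searched either, so a gene without a match here may have the motif elsewhere. A match describes the letters and does not show that a factor was bound. The upstream bases of 2 immediate early and 2 heat shock members are shown 5′ to 3′, with TGACG and TGACGTCA in capitals for Fos (chr12:85473640-85473889, plus strand) and Dusp1 (chr17:26508473-26508722, minus strand), and the heat shock element in capitals for Hspa1a (chr17:34972157-34972406, minus strand) and Hsph1 (chr5:149636337-149636586, minus strand).
Fos: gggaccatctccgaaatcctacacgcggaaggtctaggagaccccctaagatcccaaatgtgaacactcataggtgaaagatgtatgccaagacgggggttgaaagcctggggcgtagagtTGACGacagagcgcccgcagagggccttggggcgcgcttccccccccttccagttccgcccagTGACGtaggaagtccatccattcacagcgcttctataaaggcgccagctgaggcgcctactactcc
Dusp1: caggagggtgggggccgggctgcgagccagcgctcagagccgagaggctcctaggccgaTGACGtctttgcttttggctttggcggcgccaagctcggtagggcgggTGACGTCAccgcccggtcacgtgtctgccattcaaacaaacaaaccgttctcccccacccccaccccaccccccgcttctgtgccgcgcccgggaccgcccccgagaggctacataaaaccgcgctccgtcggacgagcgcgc
Hspa1a: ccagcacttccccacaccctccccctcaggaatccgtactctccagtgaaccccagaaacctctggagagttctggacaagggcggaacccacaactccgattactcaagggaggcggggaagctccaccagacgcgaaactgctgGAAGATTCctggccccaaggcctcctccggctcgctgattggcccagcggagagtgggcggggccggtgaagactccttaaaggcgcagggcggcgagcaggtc
Hsph1: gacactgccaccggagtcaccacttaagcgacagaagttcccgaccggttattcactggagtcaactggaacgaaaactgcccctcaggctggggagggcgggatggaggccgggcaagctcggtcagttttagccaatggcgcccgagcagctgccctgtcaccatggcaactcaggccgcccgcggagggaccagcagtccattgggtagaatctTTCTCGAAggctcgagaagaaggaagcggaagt

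The first question was how much of a cell class's RNA the 38 genes held in each library. Values are member UMIs per 10000 UMIs of the class, in DMSO 1, 2 and 3 and then in CWHM-12 1, 2 and 3. In LSEC the members held 65.8, 69.2 and 74.2 under DMSO and 80.2, 78.2 and 92.7 under CWHM-12. In Kupffer cells, the resident liver macrophages, they held 71.5, 81.0 and 78.1 under DMSO and 84.6, 107 and 124 under CWHM-12. The means were 69.7 ± 4.20 and 83.7 ± 7.88 in LSEC and 76.9 ± 4.89 and 105 ± 19.6 in Kupffer cells (SD, n = 3 libraries each). In both classes every CWHM-12 library stood above every DMSO library, which did not hold in Kupffer cells once Hspa8 was left out. In T cells the values were 61.6, 57.8 and 59.5 against 74.3, 70.3 and 71.2, and in B cells 82.2, 84.5 and 82.5 against 89.5, 92.0 and 105, again with no overlap. The groups were also separate in vascular endothelial cells, monocytes and type 2 dendritic cells (cDC2), which makes 7 of the 11 classes with all 6 libraries. They overlapped in the other 4: in cholangiocytes, the bile duct cells, at 100.1, 100.1 and 90.4 against 127, 99.6 and 142, in stellate cells at 68.5, 80.7 and 87.5 against 74.4, 91.1 and 101, in hepatocytes at 44.7, 54.8 and 43.1 against 39.8, 47.1 and 53.3, and in NK cells at 69.8, 61.8 and 57.5 against 72.5, 70.4 and 68.2. An exact two-sided permutation test of 3 libraries against 3 cannot give a p below 0.1, so none of these separations could reach 0.05.

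The separation did not rest on all roles alike. The summed AP-1 members were separate in 5 of 11 classes, the other transcription regulators, the feedback proteins and the heat shock members in 2 each, and the RNA decay members in 0. Without Hspa8 the members together were separate in 5 classes and without all heat shock members in 4. Leaving out 1 library at a time gave 7 or 8, but this count cannot fall when a library is removed, so it does not measure stability. Kupffer and B cells were separate with Hspa8 and overlapped without it. Without Hspa8 the members held 57.9, 77.7 and 71.4 UMIs per 10000 in Kupffer cells under DMSO and 73.6, 95.1 and 111 under CWHM-12. In B cells they then held 72.7, 82.9 and 78.7 against 78.0, 82.2 and 94.7. In LSEC the AP-1 members held 12.3, 14.8 and 21.6 UMIs per 10000 under DMSO and 21.3, 22.2 and 29.1 under CWHM-12, where DMSO 3 lay level with CWHM-12 1. In Kupffer cells they held 15.5, 20.7 and 23.4 against 24.9, 30.7 and 36.4, with no overlap. The other measures of these libraries also differed. Kupffer cells of CWHM-12 2 and 3 had median depths of 5928 and 8918 UMIs, against 1721, 4705 and 5010.5 in DMSO and 1935 in CWHM-12 1. Median mitochondrial shares of Kupffer cells were 11.8%, 11.1% and 8.57% in DMSO and 9.56%, 6.91% and 7.35% in CWHM-12. Monocyte markers (9 genes) summed to 1.59 to 1.93 UMIs per 10000 in the Kupffer class under DMSO and 2.20 to 2.27 under CWHM-12, and hepatocyte markers (12 genes) to 20.5 to 41.7 and 17.1 to 27.2. Scar-associated macrophage markers (6 genes) summed to 0.867 to 1.51 in the Kupffer class under DMSO and 0.386 to 0.755 under CWHM-12. No marker of these 3 lists was at 0 in the Kupffer class. In LSEC none of 21 lists of other cell types was separate between the groups, but the median mitochondrial share was, at 8.88%, 10.1% and 8.63% in DMSO and 7.82%, 7.23% and 7.97% in CWHM-12. The LSEC of the libraries also lay in different clusters. Cluster 1 held 57.4%, 59.3% and 56.5% of them in DMSO and 59.9%, 22.3% and 3.60% in CWHM-12, and cluster 3 held 2.04%, 2.11% and 12.9% against 3.48%, 24.8% and 49.95%. Within cluster 1 the members held 69.8, 73.7 and 78.3 UMIs per 10000 under DMSO and 85.1, 88.4 and 101 under CWHM-12, again without overlap. The part of depth, RNA quality and RNA of other cells in the member levels was not tested.

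**Figure D1:**
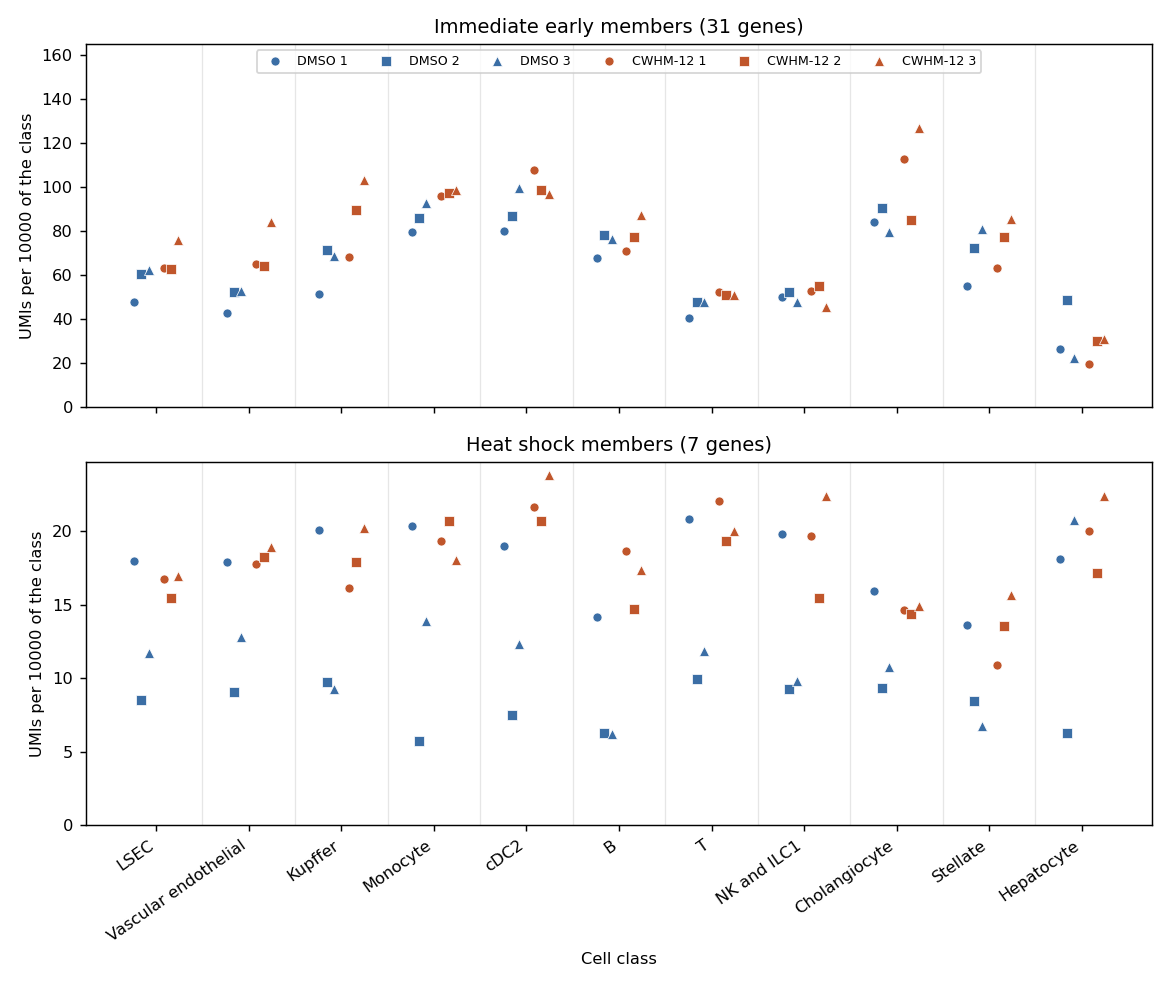
Summed UMIs of the 31 immediate early members (upper panel) and the 7 heat shock members (lower panel) per 10000 UMIs of a cell class (vertical axis), in 11 classes (horizontal axis); each point is 1 library. DMSO 2 and DMSO 3 lie low for the heat shock members in most classes, while DMSO 1 lies among or above the CWHM-12 libraries in several, and CWHM-12 3 has the highest immediate early sum in LSEC, vascular endothelial cells, Kupffer cells, monocytes, B cells, cholangiocytes and stellate cells.

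The AP-1 members were tested in each class with edgeR's quasi-likelihood test on summed counts with a batch term. A difference is given as log2 of CWHM-12 over DMSO with its standard error (SE), and a level as TMM-scaled CPM (the UMIs of a gene scaled to a common library total), compared within a gene only. Fos, whose protein pairs with Jun proteins to form AP-1, stood at 242, 409 and 458 CPM in LSEC under DMSO and at 531, 536 and 849 CPM under CWHM-12 (log2 0.65, SE 0.28). In Kupffer cells Fos stood at 542, 917 and 738 CPM against 976, 1098 and 1273 CPM (log2 0.55, SE 0.23), and in B cells at 129, 132 and 151 against 231, 162 and 303 CPM (log2 0.70, SE 0.25). In these 3 classes every CWHM-12 library exceeded every DMSO library for Fos. In cholangiocytes Fos overlapped, at 926, 825 and 1128 against 1657, 830 and 1545 CPM, and in hepatocytes it spread over 43.6, 130 and 20.2 against 14.03, 125 and 76.9 CPM. The hepatocyte difference had opposite signs in the batches, -2.37 in 2024.6 and 2.24 in 2024.12. In T cells Fos was at 128, 213 and 140 against 283, 151 and 216 CPM (log2 0.58, SE 0.26), and in stellate cells at 190, 430 and 365 against 251, 481 and 467 CPM (log2 0.04, SE 0.35), both with overlap.

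Jun, the main partner of Fos, stood in Kupffer cells at 245, 242 and 450 CPM under DMSO and at 409, 545 and 688 CPM under CWHM-12 (log2 0.60, SE 0.16), where DMSO 3 lay above CWHM-12 1. In cholangiocytes Jun stood at 1042, 736 and 841 against 1475, 1075 and 1721 CPM (log2 0.73, SE 0.23), without overlap. In T cells Jun was high in 1 library, at 74.9, 93.1 and 96.1 against 254, 95.0 and 84.5 CPM (log2 0.83, SE 0.34), and without CWHM-12 1 its difference was -0.09. In LSEC Jun stood at 354, 318 and 690 against 540, 606 and 807 CPM, a difference of 0.69 within batch 2024.6 and 0.02 within 2024.12. In hepatocytes it stood at 104, 229 and 159 against 60.1, 169 and 162 CPM (log2 -0.70, SE 0.47), so the groups overlapped and the sign was opposite to that in Kupffer cells. Single values of members outside the 10 followed by library throughout (Fos, Jun, Egr1, Ier2, Dusp1, Hspa1a, Hspa8, Hsph1, Dnajb1 and Dnaja1) were chosen after they were seen, and 8 of the 10 were taken for the size of their mean change over the classes. Among the other AP-1 members, Jund was positive in 14 of 15 classes with a median of 0.36, and Fosb in 10 of 13 with a median of 0.57. Atf3, a stress-induced partner of AP-1, stood at 27.98, 27.1 and 23.6 CPM in cholangiocytes under DMSO and at 61.5, 55.2 and 119 CPM under CWHM-12 (log2 1.58, SE 0.35), and at 12.6, 9.92 and 15.7 against 9.42, 11.5 and 20.6 CPM in Kupffer cells (log2 -0.10, SE 0.29). Junb had a median of 0.10 over 15 classes, Fosl2 of 0.17 over 11 and Maff, a small Maf protein, of 0.05 over 5.

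The levels themselves followed cell type. Fos had its highest mean in monocytes (1281 CPM) and cholangiocytes (1152 CPM), whose ranges over the libraries overlapped, and its lowest in hepatocytes (68.4 CPM). Jun was highest in cholangiocytes (1148 CPM) and lowest in T cells (116 CPM). Cebpd, an acute-phase regulator, was highest in stellate cells (730 CPM), Cebpb in monocytes (607 CPM), and Rhob, a small GTPase of the cytoskeleton, in LSEC (1066 CPM). In 37 of the 38 members the top class overlapped the next in its range over the 6 libraries. The exception was Zfp36l1, at 1207 to 1765 CPM in B cells and 559 to 1204 CPM in cDC2.

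The other transcription regulators did not share one direction. Egr1, a zinc finger factor induced through serum response factor, was positive in 7 of the 14 classes where it was tested, with a median of 0.002. In hepatocytes Egr1 stood at 102, 173 and 104 CPM under DMSO and at 32.8, 90.9 and 71.7 CPM under CWHM-12 (log2 -1.21, SE 0.47), lower in every CWHM-12 library. In T cells Egr1 was at 100.2, 144 and 65.5 against 179, 83.5 and 148 CPM (log2 0.67, SE 0.28), with overlap. In stellate cells DMSO 3 alone was high, at 461, 682 and 1569 against 659, 597 and 637 CPM (log2 -0.58, SE 0.34), with a difference of 0.23 in batch 2024.6 and -1.35 in 2024.12. In LSEC Egr1 stood at 153, 273 and 182 against 295, 168 and 243 CPM and in Kupffer cells at 217, 351 and 419 against 317, 457 and 308 CPM, both overlapping. Leaving out 1 library gave hepatocyte differences of -2.03 to -0.37 for Egr1, so the sign held and the size did not. Nr4a1, an orphan nuclear receptor of early response, stood in Kupffer cells at 25.1, 29.01 and 34.2 against 34.9, 65.4 and 93.9 CPM (log2 0.82, SE 0.26), with no overlap, and it was positive in 7 of 13 classes. Cebpb was positive in all 11 classes where it was tested, with a median of 0.59, and Myc, a growth regulator, in 3 of 11 with a median of -0.27. Klf6 was positive in 11 of 15 classes (median 0.14), Cebpd in 10 of 13 (0.32) and Csrnp1 in 7 of 11 (0.24), while Egr2 and Nr4a2 were tested in 1 class each, at -0.34 and -0.18.

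The RNA decay and growth arrest members showed little difference. Zfp36, which binds AU-rich RNA and speeds its decay, was positive in 7 of 15 classes with a median of -0.02. Its relative Zfp36l1 was positive in 6 of 15 (median -0.09), and the anti-proliferative genes Btg1 in 7 (median -0.009) and Btg2 in 6 (median -0.05). None of the 4 had an unadjusted p under 0.05 in any class. The median over the 4 genes was highest in cholangiocytes (0.25) and lowest in neutrophils (-0.53), and it was -0.19 in hepatocytes.

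Among the feedback and survival members, Dusp1, the phosphatase that turns MAP kinases off, was positive in 14 of 15 classes with a median of 0.49. In NK cells Dusp1 stood at 107, 139 and 49.6 CPM under DMSO and at 243, 115 and 52.7 CPM under CWHM-12 (log2 0.96, SE 0.39), with overlap. In cholangiocytes it stood at 169, 387 and 153 against 445, 220 and 281 CPM (log2 0.70, SE 0.28). In Kupffer cells Dusp1 was at 290, 556 and 525 against 510, 666 and 1053 CPM (log2 0.49, SE 0.31) and in LSEC at 231, 394 and 305 against 371, 318 and 445 CPM (log2 0.28, SE 0.26). DMSO 1 was the lowest library for Dusp1 in 8 of 11 classes, as it was for Fos, Zfp36 (8 each) and Junb (7). Ier2, a nuclear early response protein, was low in DMSO 2 instead. In LSEC Ier2 stood at 39.3, 11.6 and 72.5 CPM under DMSO and at 66.0, 40.9 and 68.3 CPM under CWHM-12, and in Kupffer cells at 60.5, 22.8 and 80.0 against 79.2, 110 and 103 CPM. In T cells it stood at 78.5, 17.1 and 97.5 against 91.1, 67.1 and 91.5 CPM. With or without DMSO 2 the groups overlapped for Ier2 in LSEC, Kupffer and T cells, and DMSO 2 lay below all other libraries in 10 of 11 classes, by a median of 3.52-fold.

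Socs3, a brake on cytokine receptors, was positive in 10 of 11 classes with a median of 0.83. In LSEC it stood at 28.6, 59.4 and 84.1 CPM under DMSO and at 88.2, 116 and 153 CPM under CWHM-12 (log2 0.85, SE 0.30), separate between groups, with log2 0.63 to 1.05 when 1 library was left out. Ppp1r15a, which restores protein synthesis after stress, was positive in 11 of 12 classes (median 0.64), and Gadd45g, a growth arrest protein, in 6 of 6 (median 0.76). Gadd45b was tested in 4 classes (3 positive), Ier3 in 6 (4 positive), Ier5 in 15 (9 positive) and Rhob in 15 (10 positive). Mcl1, which blocks cell death, was positive in 6 of 15 with a median of -0.05.

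The heat shock members had low values in single DMSO libraries, and not the same library for each gene. Hspa8, the constitutive Hsc70 chaperone, stood in LSEC at 1143, 238 and 802 CPM under DMSO and at 1026, 1046 and 1131 CPM under CWHM-12. In Kupffer cells Hspa8 stood at 1375, 338 and 660 against 1089, 1207 and 1338 CPM, and in hepatocytes at 784, 138 and 945 against 761, 963 and 1242 CPM. DMSO 1 lay above every CWHM-12 library in LSEC and Kupffer cells and among them in hepatocytes, and DMSO 2 lay far below all others. In all 11 classes DMSO 2 was below every other library for Hspa8, by 3.57-fold to 8.24-fold of their median. In B cells the groups were separate, at 959, 168 and 384 against 1167, 996 and 1031 CPM (log2 1.21, SE 0.51), and leaving out 1 library gave 0.88 to 1.97. Hspb1, a small chaperone, was positive in 4 of 7 classes with a median of 0.04. It was likewise lowest in DMSO 2 in all 6 classes where it was tested with all 6 libraries, by 1.79-fold to 6.31-fold. One of these was Kupffer cells, where it was near 0, at 0.73 CPM in DMSO 2 and 2.7 to 6.8 CPM in the other libraries. No library was lowest for the J-domain cochaperone Dnajb1 in more than 5 of 11 classes.

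Hsph1, the Hsp110 exchange factor whose heat shock element is printed above, was low in DMSO 3 instead. It stood at 47.6, 63.3 and 12.1 CPM in LSEC under DMSO and at 34.7, 32.3 and 46.5 CPM under CWHM-12. In Kupffer cells Hsph1 stood at 82.4, 68.7 and 15.7 against 37.9, 53.7 and 62.4 CPM, in stellate cells at 53.8, 64.8 and 7.83 against 34.4, 28.96 and 40.9 CPM, and in T cells at 168, 188 and 43.7 against 154, 111 and 153 CPM. DMSO 3 was the lowest library in each, and DMSO 1 and 2 were level with or above CWHM-12. DMSO 3 was below every other library in 10 of 11 classes for Hsph1 (median 3.86-fold over the classes where it was above 0, with 0 UMIs in monocytes) and in 10 of 11 for Dnaja1, an Hsp40 cochaperone (median 1.74-fold). For both genes the exception was hepatocytes, with Hsph1 at 74.1, 40.3 and 77.2 against 82.5, 68.9 and 84.5 CPM. Dnaja1 stood in LSEC at 419, 460 and 198 against 400.5, 335 and 448 CPM (log2 0.42, SE 0.30), which was -0.13 within batch 2024.6 and 0.97 within 2024.12. In B cells Dnaja1 stood at 307, 322 and 151 against 491, 286 and 503 CPM (log2 0.98, SE 0.27), with overlap.

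Dnajb1, which activates Hsp70 proteins, did not have a low DMSO library in LSEC or Kupffer cells. In LSEC Dnajb1 stood at 37.5, 37.6 and 34.96 CPM under DMSO and at 52.1, 42.8 and 57.3 CPM under CWHM-12 (log2 0.50, SE 0.18). In Kupffer cells it stood at 27.6, 29.4 and 25.3 against 40.7, 37.3 and 44.6 CPM (log2 0.61, SE 0.17), and in stellate cells at 37.4, 29.5 and 36.0 against 56.0, 42.5 and 52.6 CPM (log2 0.55, SE 0.23). In T cells Dnajb1 stood at 68.6, 49.4 and 69.9 against 86.9, 85.2 and 113 CPM (log2 0.51, SE 0.25). In these 4 classes, in B cells and in hepatocytes every CWHM-12 library exceeded every DMSO library, while cholangiocytes (43.6, 50.9 and 48.6 against 78.4, 36.8 and 56.7 CPM) and NK cells (65.0, 87.1 and 116 against 68.9, 57.7 and 140 CPM) overlapped. Hspa1a, the inducible Hsp70, stood in Kupffer cells at 44.5, 57.7 and 57.9 against 65.1, 89.5 and 146 CPM (log2 0.70, SE 0.27), without overlap. In LSEC Hspa1a was low, at 4.55, 4.78 and 1.96 against 4.63, 7.74 and 7.93 CPM, and it was not tested in hepatocytes, B, T or NK cells. Its upstream bases match those of Hspa1b at 247 of 250 positions (98.8%), and the 2 genes are near-identical copies, so how reads were divided between them is uncertain. Hspa1b was positive in 8 of 9 classes with a median of 1.04. DMSO 3 was below every other library for Hspa1b in 6 of the 8 classes where it was tested with all 6 libraries (median 4.39-fold). Its levels were low in some of them, at 1.47 CPM in LSEC of DMSO 3.

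**Figure D2:**
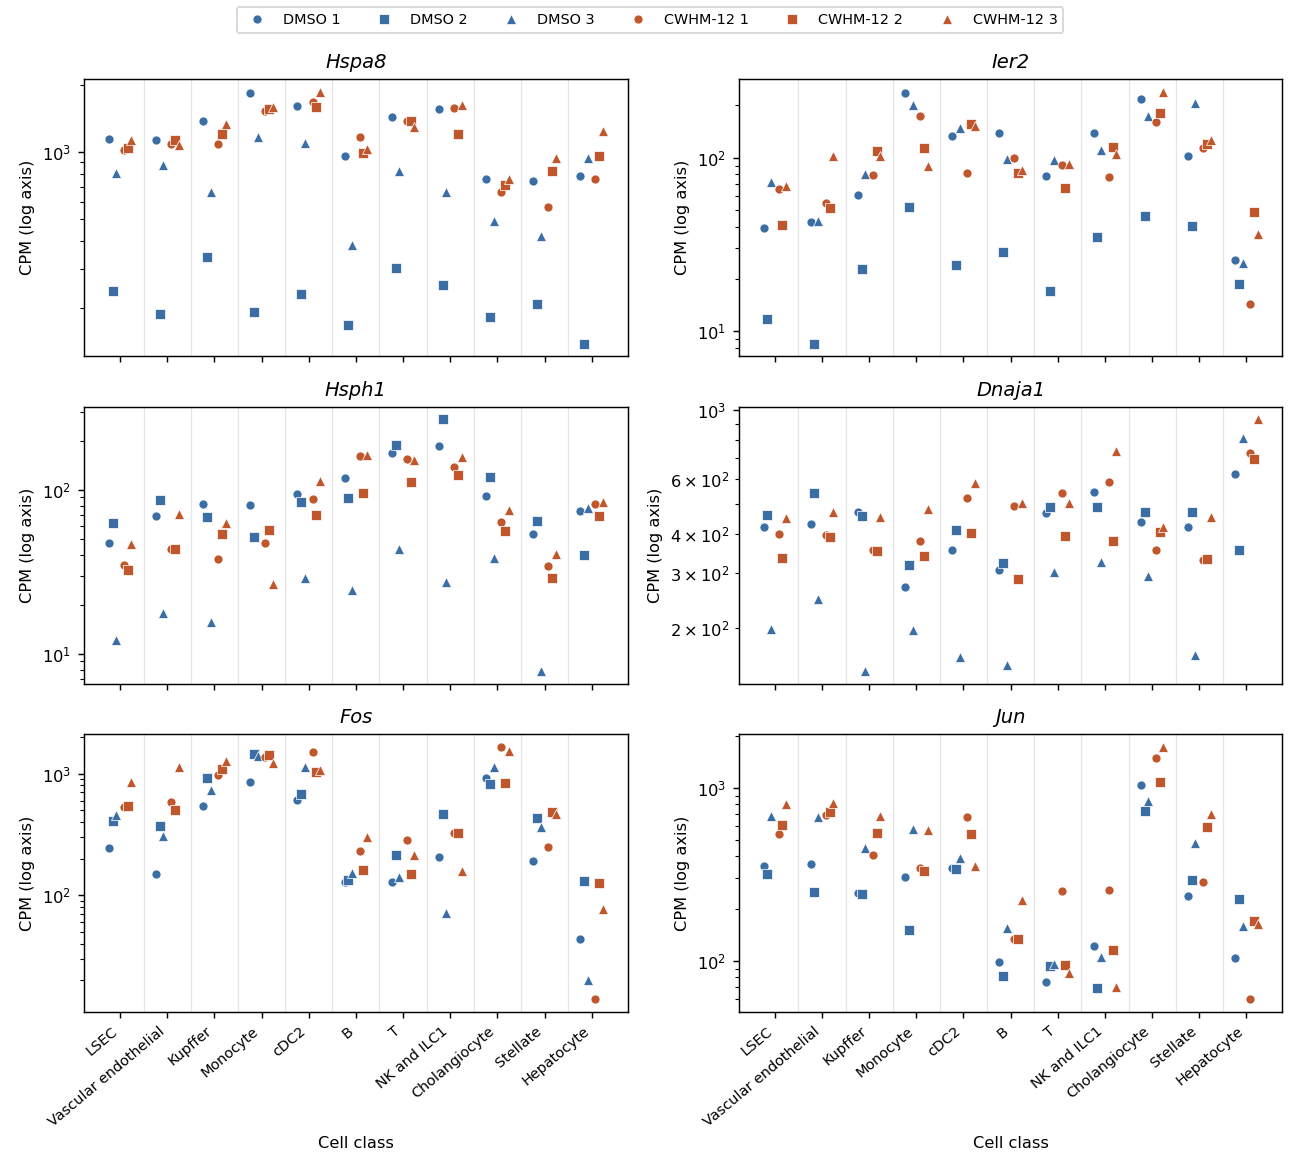
TMM-scaled CPM (vertical axis, log scale) of 6 members in 11 classes (horizontal axis), each point 1 library. DMSO 2 is the lowest point for Hspa8 in all 11 classes and for Ier2 in 10, and DMSO 3 is the lowest for Hsph1 and Dnaja1 in 10 each (a value of 0 for Hsph1 in monocytes of DMSO 3 is off the log axis). DMSO 1 is lowest for Fos in 8 classes and DMSO 2 for Jun in 8.

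No member passed the test in any class with the filters and libraries described. The members gave 440 tests in 15 classes, and the lowest adjusted p was 0.373 (edgeR's quasi-likelihood test, Benjamini-Hochberg over all genes of a class). Over all genes, 0% were called in 12 of the classes, 0.374% in NK cells, 0.0253% in cDC2 and 0.0171% in mesothelial cells. Of the 440 tests, 314 were positive and 126 negative. At an unadjusted p under 0.05 there were 59 (13.4%), 58 of them higher under CWHM-12 and 1 lower (Egr1 in hepatocytes), beside 2.40% of the 105643 tests of all genes. The tests share the same 6 libraries, so they are not independent of each other. The count of calls moved with single DMSO libraries and with the filters, over all genes as well as among the members. Without DMSO 2 there were 7 member calls among 199 over all genes, against 0 among 15 with all libraries: Atf3, Dusp1 and Klf6 in cholangiocytes, Dnaja1 in cDC2, and Dnaja1, Hspa8 and Ier5 in plasmacytoid dendritic cells (pDC, where CWHM-12 1 had under 20 cells), all higher under CWHM-12. These were 3 of 35 members beside 12 of 9521 genes in cholangiocytes, 1 of 30 beside 85 of 4904 in cDC2, and 3 of 22 beside 33 of 3363 in pDC. Without DMSO 1 there were 5 among 245, which were Dusp1 in mesothelial cells, Hspa8 in type 1 dendritic cells, and the same 3 genes in pDC. They were 1 of 32 members beside 190 of 5532 genes in mesothelial cells, 1 of 24 beside 16 of 5025 in type 1 dendritic cells, and 3 of 20 beside 34 of 3187 in pDC. With no filter on low counts there were 7 member calls among 611 over all genes, and with stricter cell filters 3 among 61. With no filter, vascular endothelial cells had 3 of 38 members beside 67 of 17141 genes. The rest were 1 member each in B cells (4 of 16720 genes), cholangiocytes (26 of 16974), NK cells (103 of 13916) and stellate cells (25 of 17985). The stricter filters called members in pDC only, 3 of 21 beside 37 of 3168 genes.

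By class, Kupffer cells had 31 of 36 members positive with a median of 0.38, beside 0.009 over all genes, and 9 members separate and higher, beside 5.49% of all genes. They had 7 members at an unadjusted p under 0.05, beside 1.87% of all genes, among them Jun, Fos, Nr4a1, Dnajb1 and Hspa1a. Cholangiocytes had 34 of 35 positive (median 0.41), with 6 separate (5.33% of all genes) and 7 at an unadjusted p under 0.05 (2.39%). LSEC had 27 of 36 positive (median 0.34), with 4 separate (5.39%) and 3 at an unadjusted p under 0.05 (2.06%), which were Dnajb1, Jund and Socs3. Vascular endothelial cells had 30 of 34 positive (median 0.54), with 8 separate (5.17%) and 8 at an unadjusted p under 0.05 (2.01%). These 4 classes had positive medians within each batch, at 0.34 and 0.44 in Kupffer cells, 0.67 and 0.41 in cholangiocytes, 0.50 and 0.24 in LSEC, and 0.52 and 0.51 in vascular endothelial cells for 2024.6 and 2024.12. Medians were also positive in both batches in B, T, NK and stellate cells, monocytes, cDC2 and type 1 dendritic cells. Hepatocytes and neutrophils had opposite signs in the batches. Without DMSO 1 the LSEC median was 0.16. In cholangiocytes the summed portal fibroblast markers (8 genes, 2 at 0) were 8.27 to 12.3 UMIs per 10000 under DMSO and 14.3 to 15.98 under CWHM-12, and hepatocyte markers (12 genes) 98.1 to 120.3 and 84.3 to 93.2. In vascular endothelial cells stellate markers (12 genes) summed to 1.26 to 2.53 under DMSO and 2.64 to 3.71 under CWHM-12, markers of type 1 dendritic cells (6 genes) to 6.78 to 9.23 and 9.63 to 18.6, and plasma cell markers (5 genes, 1 at 0) to 1.64 to 2.55 and 2.92 to 3.74. Their median mitochondrial shares were 9.54%, 11.2% and 8.30% in DMSO and 8.09%, 7.697% and 7.702% in CWHM-12. The 2 clusters of vascular endothelial cells were also mixed unevenly. The larger held 208, 116 and 403 cells in DMSO and 97, 308 and 76 in CWHM-12. The smaller held 41, 44 and 32 against 18, 122 and 137, so it was the larger part in CWHM-12 3 alone. The part of these clusters and of other cells in the member differences was not tested.

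B cells had 17 of 28 members positive (median 0.33, or 0.12 without CWHM-12 3 and 0.21 without DMSO 2), with 4 separate (4.98% of all genes) and 5 at an unadjusted p under 0.05 (1.18%). T cells had 21 of 28 positive (median 0.36, or 0.16 without CWHM-12 1), with 3 separate and higher (3.69%), 2 separate and lower (5.13%) and 5 at an unadjusted p under 0.05 (2.65%). In T cells 2 of 21 marker lists of other cell types were separate and higher, and in B cells 1 was separate and lower. Markers of pDC (6 genes, 1 at 0) summed in T cells to 1.16 to 1.36 UMIs per 10000 under DMSO and 1.88 to 3.06 under CWHM-12. The part of such cells in the member differences was not tested. Monocytes had 22 of 28 positive and 4 separate (6.08%), and cDC2 had 21 of 28 positive and 4 separate (5.64%). In monocytes portal fibroblast markers (8 genes, 3 at 0) summed to 0.985 to 1.28 UMIs per 10000 under DMSO and 0.657 to 0.854 under CWHM-12, and neutrophil markers (7 genes, 1 at 0) to 1.33 to 2.10 and 0.876 to 1.26. In cDC2 stellate markers (12 genes, 1 at 0) summed to 1.03 to 1.33 against 1.72 to 11.3, and B cell markers (7 genes, 1 at 0) to 0 to 0.144 against 0.208 to 0.239. Their part in the member differences was not tested. Stellate cells had 21 of 35 positive and a median of 0.07 (0.25 without DMSO 2, 0.20 without CWHM-12 1). Within batches their median was 0.23 in 2024.6 and 0.21 in 2024.12. They had 4 separate (4.25%) and 3 at an unadjusted p under 0.05 (1.78%). Of 21 marker lists of other cell types, 3 were separate and higher in stellate cells and 1 separate and lower. NK cells had 11 of 20 positive (median 0.09, or -0.01 without DMSO 3), with 0 separate and higher (4.64%), 1 separate and lower (5.36%) and 1 at an unadjusted p under 0.05 (4.03%). In NK cells 1 of the 21 marker lists was separate and higher. Hepatocytes had 15 of 34 positive with a median of -0.09, with 1 separate and higher (4.60%), 2 separate and lower (3.16%) and 2 at an unadjusted p under 0.05 (1.76%). The hepatocyte median was -0.59 within batch 2024.6 and 0.50 within 2024.12, -0.67 without DMSO 3 and 0.55 without CWHM-12 1. Hepatocyte members therefore had no direction that held across batches or libraries. Median mitochondrial shares of hepatocytes were 10.9%, 8.70% and 0.723% in DMSO and 4.70%, 0.959% and 1.14% in CWHM-12. They were lower in every library of batch 2024.12 than in 2024.6. Median depths were 1144 to 2211 UMIs, and 2 of the 21 marker lists were separate and lower. The part of these measures in the member differences of hepatocytes, stellate and NK cells was not tested.

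**Figure D3:**
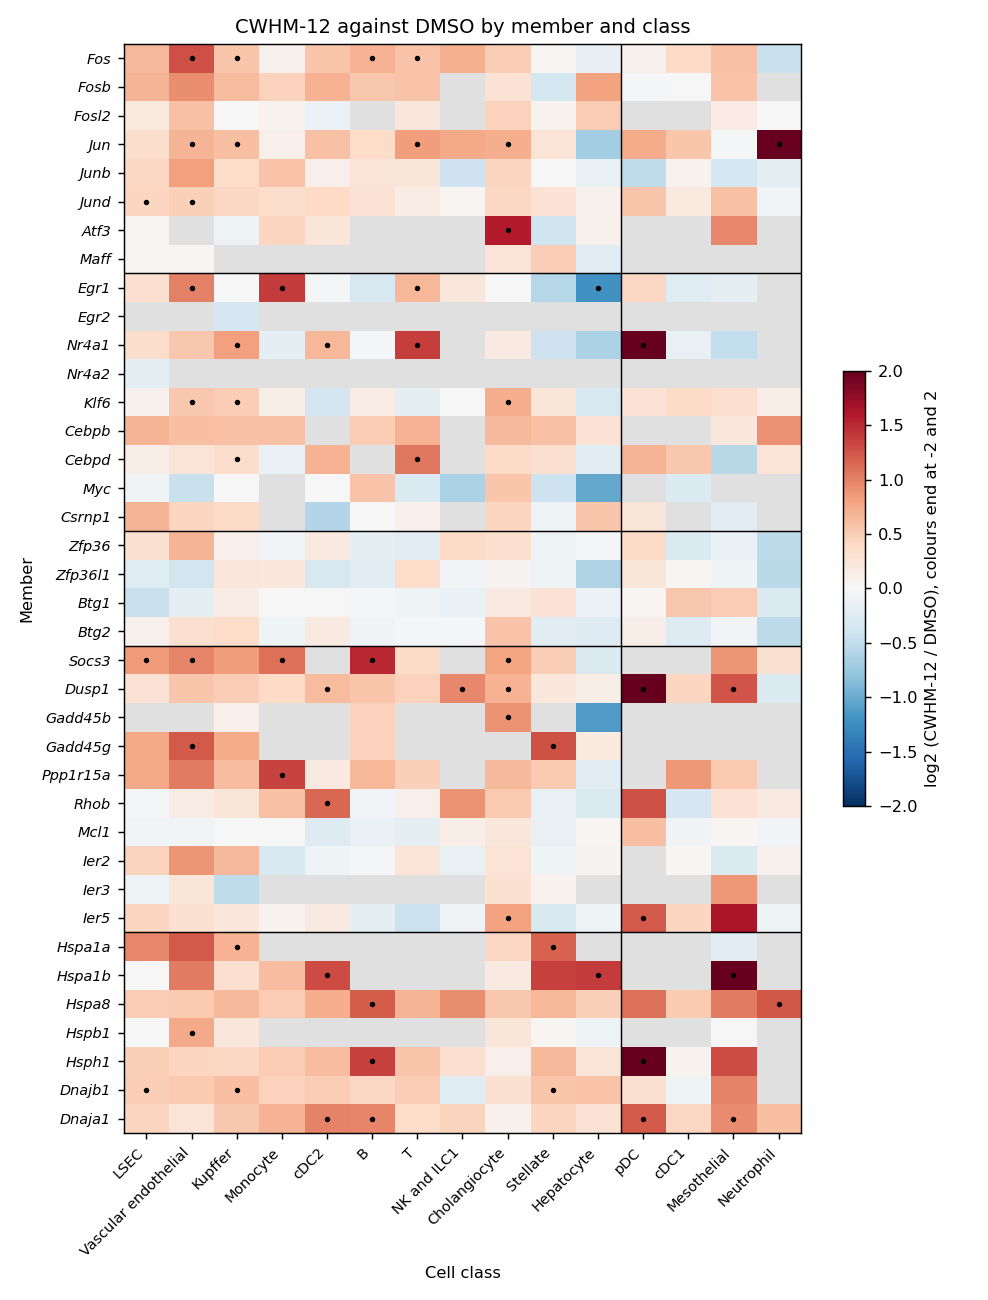
Log2 of CWHM-12 over DMSO (colour, ending at -2 and 2) for each of the 38 members (rows, by role) in 15 classes (columns; the last 4 lack at least 1 library), with grey where a gene was not tested and a dot where the unadjusted p was under 0.05. Red dominates in Kupffer and vascular endothelial cells and cholangiocytes, the RNA decay rows are pale, and the hepatocyte column is mixed, with 15 of 34 positive.

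Whether a shift was shared by the cells of a library was asked with 1 value per gene and library, the mean of log2 CPM over the 11 classes. Of the 19 members measured in all 11, 16 were positive, with a median of 0.26 beside 0.003 over all 2373 genes, and 0.08 and 0.33 within the 2 batches. None was called (limma, Benjamini-Hochberg over all genes, lowest adjusted p 0.959), as was none of all genes (0%). At an unadjusted p under 0.05 there was 1 member, Dnajb1, beside 1.31% of all genes. Dnajb1, Jun and Klf6 were separate between the groups, beside 4.76% of all genes. Dnajb1 stood at 5.55, 5.46 and 5.70 log2 CPM under DMSO and at 6.03, 5.88 and 6.13 under CWHM-12, a difference of 0.41 (SE 0.15). Jun stood at 7.84, 7.71 and 8.39 against 8.44, 8.43 and 8.60 (difference 0.40, SE 0.16), with 0.66 in batch 2024.6 and 0.13 in 2024.12.

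For Fos the library means were 8.00, 8.74 and 8.28 log2 CPM under DMSO and 8.74, 8.84 and 9.06 under CWHM-12, a difference of 0.52 (SE 0.23) in which DMSO 2 lay level with CWHM-12 1. For Dusp1 they were 7.49, 8.25 and 7.54 against 8.12, 8.05 and 8.44 (difference 0.48, SE 0.26), with DMSO 2 inside the CWHM-12 range. Hspa8 had the largest difference of the 19, 0.91 (SE 0.64), from 10.18, 7.77 and 9.48 against 10.08, 10.13 and 10.26. DMSO 1 lay within the CWHM-12 libraries for Hspa8, and the difference was 0.36 without DMSO 2. Hsph1 followed at 0.62 (SE 0.43), from 6.52, 6.51 and 4.59 against 6.16, 6.004 and 6.36, and was -0.35 without DMSO 3. Dnaja1 differed by 0.49 (SE 0.24), from 8.73, 8.76 and 7.91 against 8.82, 8.59 and 9.05, and by 0.09 without DMSO 3. Ier2 differed by 0.34 (SE 0.49), by -0.09 without DMSO 2 and by -0.05 without CWHM-12 1. The sign of Hsph1 thus rested on DMSO 3 and that of Ier2 on DMSO 2 and CWHM-12 1. Without DMSO 3 the median of the 19 members was 0.09.

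The difference was positive in all 11 classes for 5 of the 19 members (26.3%, beside 10.1% of all genes positive in all 11), which were Jund, Dusp1, Hspa8, Hsph1 and Dnaja1. The test of whether the treatment difference varied between classes called 0 members, beside 0.211% of all genes (edgeR). Its 3 lowest members were Egr1, Klf6 and Rhob, with an adjusted p of 0.300 for Egr1. Without DMSO 3 the same test called 5 of the 19 members (Dusp1, Egr1, Fos, Hsph1 and Jun) among 28 of the 2373 genes. Without CWHM-12 1 it called 3 of the 19 (Dnaja1, Egr1 and Hsph1) among 45 of the 2373, against 5 genes with all libraries. The share of each gene's squared deviations from its class means that was common to all classes of a library had a median of 37.7% over the members and 32.05% over all genes. It was 93.4% for Hspa8, 76.6% for Ier2, 76.2% for Jund and 73.9% for Hsph1, and 9.77% for Egr1 and 14.7% for Klf6. Deviations of the 4 heat shock members measured in all 11 classes (median 68.7%) were thus mostly common to a library. Those of Egr1 mostly were not. The remainder also holds counting noise, so Egr1 deviations may not be particular to a class. For Hspa8, 22.1% of the squares went with treatment within batch and 59.8% with neither batch nor treatment.

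Whether most cells or few carried the difference was described in cells thinned to 1000 UMIs, leaving out shallower cells. The median Kupffer cell held 4, 6 and 5 member UMIs of 1000 under vehicle and 4, 10 and 12 under CWHM-12, so CWHM-12 1 lay with the DMSO libraries. The median LSEC held 6, 6 and 6 against 6, 7 and 8, the median B cell 8, 8 and 8 against 9, 9 and 11, and the median T cell 6, 5 and 6 against 6, 7 and 7. Stellate cells (6, 7 and 6 against 5, 8 and 9) and hepatocytes (4, 6 and 4 against 4, 5 and 5) overlapped. The cells left out as too shallow were 208, 30 and 88 Kupffer cells in DMSO and 145, 17 and 0 in CWHM-12.

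**Figure D4:**
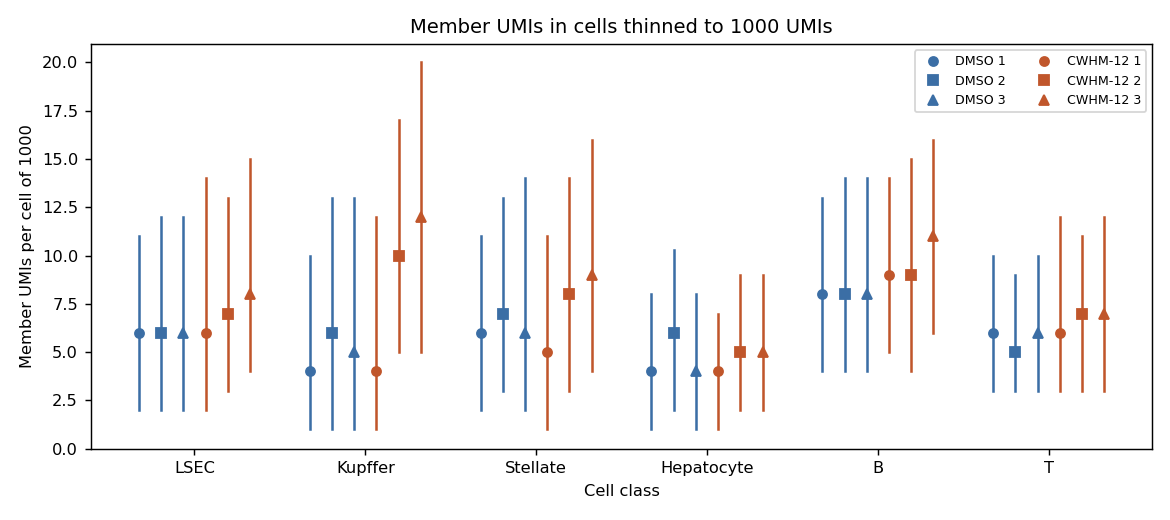
Member UMIs per cell after thinning each cell to 1000 UMIs (vertical axis) in 6 classes (horizontal axis); points are the median cell of each library and lines run from the 10th to the 90th percentile of its cells. Kupffer cells of CWHM-12 2 and 3 have medians of 10 and 12, while CWHM-12 1 has a median of 4 and lies with the DMSO libraries.

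In Kupffer cells and LSEC the member share was higher in deeper cells, which was not so in every class: in hepatocytes of CWHM-12 1 it was 39.6 UMIs per 10000 in cells under 2000 UMIs and 39.5 in those over 5000. In Kupffer cells over 5000 UMIs the members held 84.4, 87.4 and 83.5 UMIs per 10000 under DMSO and 99.9, 108 and 125 under CWHM-12, and in those under 2000 UMIs they held 39.1, 32.7 and 34.5 against 34.4, 65.2 and 65.9. In LSEC over 5000 UMIs they held 68.8, 72.4 and 79.6 against 85.0, 83.1 and 100.1, and in LSEC under 2000 UMIs 44.9, 48.8 and 46.8 against 41.6, 64.9 and 66.9. In deep cells of both classes all CWHM-12 libraries exceeded all DMSO libraries, and in shallow cells CWHM-12 1 did not. Kupffer cells fell into 2 main clusters that differed in depth. In cluster 0, with median depths of 6197.5 to 14156 UMIs, the members held 84.8, 86.6 and 82.5 against 101, 109 and 125. In cluster 7, with median depths of 1300 to 2355 UMIs, they held 41.2, 44.9 and 33.4 against 32.5, 88.3 and 82.5. Cluster 7 made up 77.0%, 42.7% and 43.6% of the Kupffer cells in DMSO and 70.0%, 14.004% and 8.02% in CWHM-12. The member medians within the clusters were 0.41 (31 of 36 positive) and 0.39 (24 of 26 positive), with 0 members called in either. These medians rest on different sets of genes, and the clusters were not tested against each other.

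**Figure D5:**
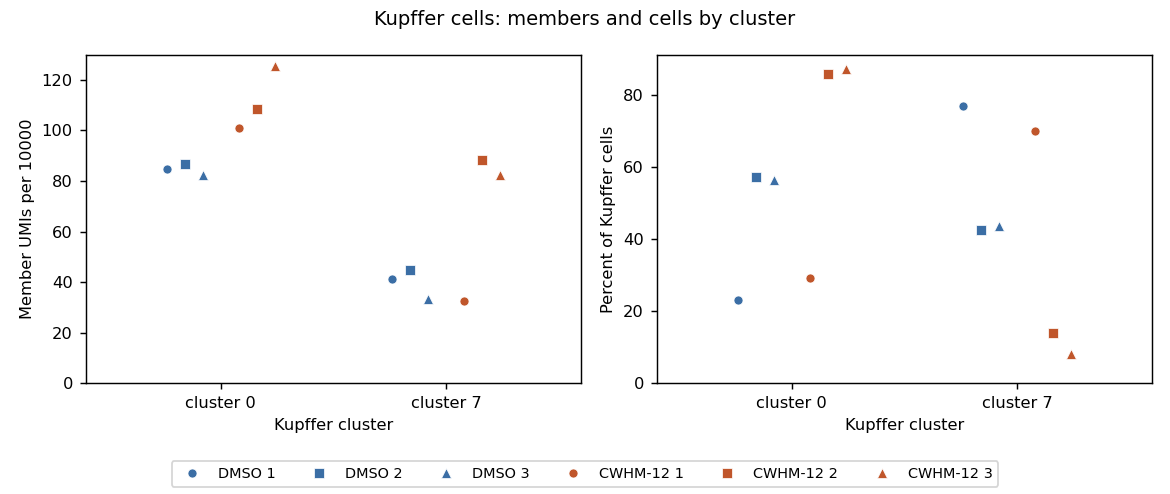
Member UMIs per 10000 (left) and percent of the Kupffer cells (right) in the 2 main Kupffer clusters (horizontal axis), each point 1 library. In cluster 0 all CWHM-12 libraries (101 to 125) lie above all DMSO libraries (82.5 to 86.6), and in cluster 7 CWHM-12 1 (32.5) lies below them.

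Genes with related roles that are not members were described in the same way. Of 40 other early response genes, 8 were measured in all 11 classes, 6 of them positive, with a median of 0.16. Klf2, an endothelial and leukocyte factor induced by flow, stood at 7.32, 6.87 and 7.73 log2 CPM under DMSO and at 7.68, 8.34 and 9.002 under CWHM-12 (difference 0.77, SE 0.24), with DMSO 3 above CWHM-12 1, and Nfkbia, the inhibitor of NF-κB, differed by 0.33 (SE 0.17). Of 24 other heat shock response genes, 14 were measured, 10 of them positive, with a median of 0.13. Hspd1, the mitochondrial Hsp60, differed by 0.27 (SE 0.11) and the Hsp70-Hsp90 linker Stip1 by 0.40 (SE 0.22), with overlap in both. Of 22 upstream serum response and MAP kinase genes, 10 were measured, 5 of them positive, with a median of 0.006. Mapk14, the kinase p38α, differed by -0.14 (SE 0.11), and Map2k2, a MAP kinase kinase, by 0.35 (SE 0.31), the latter separate between the groups. No gene of these lists passed the test. As summed UMIs, the groups were separate in 1 of 11 classes for the other early response genes and in 0 for each of the other 2 lists. The counts were 4 for the members without the heat shock genes, 2 for the heat shock members alone and 7 for the 38 together.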

How the data were processed

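Gene by cell UMI counts of 6 libraries were used as deposited by the authors, 10000 barcodes per library, per the file headers. The submitters' processing notes name build GRCm39. The aligner was not given in the sources used here. Members and gene lists were chosen with earlier results of these data known. The cell filter asked for 300 genes, 500 UMIs and no more than 30% mitochondrial UMIs, and cells with a scrublet score over 0.25 were removed as doublets. Clustering used scanpy 1.11.5 on 2000 variable genes that excluded the members, with 40 components and Leiden resolution 1.5, and gave 36 clusters, of which 7 stayed unnamed (7.77% of cells). Counts were summed per class and library over at least 20 cells. Each class was tested with edgeR 4.0.16 (quasi-likelihood, TMM, batch term, filter on low counts), the shared change with limma 3.58.1, and the class by treatment interaction with edgeR, each over all genes with a Benjamini-Hochberg threshold of 0.05. The tests were tried on simulated counts. DESeq2 1.42.0, voom, other filters, scalings and cell classes, a replicate block and leaving out each library were alternatives. Values by library are given for the 8 members with the largest shared change and for Fos, Jun, Egr1 and Hspa1a. Promoters came from RefSeq (GRCm38.p6), a different build from the counts, and were matched by symbol. A level is limited by the depth of 28220477 to 48100436 UMIs per library and by 3 libraries per group.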

Additional observations from a re-analysis of the deposited data

How the results depend on the processing

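Counts of calls depended on the processing. Over all 15 classes and all genes, 15 genes were called, against 0 with no batch term, 5 with the replicate block, 45 with DESeq2, 40 with limma voom, 611 with no filter on low counts, 61 with the stricter cell filter, 23 with classes from marker scores, 1 with equal weight for each cell, and 0 to 245 with 1 library left out. Member calls were 0, against 7 with no filter on low counts, 3 with the stricter cell filter and 0 to 7 with 1 library left out. The median of the members in the shared change was 0.26 and ran from 0.088 to 0.33 with 1 library left out. The interaction called 5 genes, against 0 without the class by batch term and 0 to 45 with 1 library left out, and 0 to 5 members. The summed members were separate in 7 classes, in 4 without the heat shock members and in 2 with those alone. The labels do not say whether the replicate numbers pair the libraries. Correlations of same-numbered libraries were 0.04, -0.14 and 0.02 over 2373 genes. They cannot settle this, as DMSO 2 and CWHM-12 2 lie in different batches. Of 621 values of single genes under alternatives, 610 kept their direction and side of the threshold, 5 came to pass it and 6 turned: Egr1 in the shared change with a minimum of 50 cells (-0.018), and, with 1 library left out, Cebpd in T cells (from -0.61 to 1.79), Jun in T cells (from -0.086 to 1.66), Hsph1 (from -0.35 to 1.55) and Ier2 (from -0.093 to 0.73, with -0.05 without CWHM-12 1) in the shared change. The cause was not tested. Low counts left Egr2 and Nr4a2 tested in 1 class each. The choices on Kupffer clusters and on subsets of the summed members were made after seeing the data.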
